A study of Phascolarctos cinereus with 3 samples.

Results

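Peaks of centromeric chromatin on scaffolds of the koala (Phascolarctos cinereus) genome assembly are described here, where the last peak of the scaffold ended before 20 kb. They come from chromatin immunoprecipitation followed by sequencing (ChIP-seq) of endometrium, the inner lining of the uterus. One library was made with a rabbit antibody against the CENP-A of Macropus eugenii (the tammar wallaby), 1 with CREST serum, a human anti-centromere antibody, and 1 from input chromatin. Both immunoprecipitations used 10 µg of antibody and the chromatin of 100000 cells, libraries were prepared from 1 ng of DNA, and no DNA was measurable after precipitation with the negative control antibodies, per the labels' protocols. The deposited peak lists name the assembly phaCin_unsw_v4.1 and give a scaffold, a start and an end for each peak. Members were chosen by the positions of the peaks themselves: the known extent of a scaffold is the last base of any peak of either list on it, and all peaks on scaffolds with a known extent under 20 kb were taken. This gave 266 of 2412 CENP-A peaks on 130 scaffolds and 227 of 758 CREST peaks on 119 scaffolds, on 139 of the 346 scaffolds that carry a peak. The 139 known extents ran from 888 to 19802 bp, with a median of 9214 bp and a sum of 1243520 bp. True scaffold lengths were not used here, and a scaffold can be longer than its known extent. Scaffolds are called shorter or longer below by their known extent only. With 1 library per antibody, no read depth and no peak height in the lists, nothing here has a replicate check and no test between the antibodies was made. Intervals are 95% intervals over peaks, pairs or scaffolds and cover counting error only.

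CENP-A is the histone H3 variant whose nucleosomes mark the active centromere and form the base on which the kinetochore is built. CREST serum comes from patients with an autoimmune disease and holds antibodies to several centromere proteins, CENP-A, CENP-B and CENP-C among them, so the antibodies are not readouts of separate proteins. Centromeres of mammals commonly sit in repetitive DNA, which genome assemblies often hold as many short pieces instead of continuous chromosomes.

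The members held 11.0% of all CENP-A peaks and 29.9% of all CREST peaks, but 26.7% of the CENP-A bases, 40.4% of the CREST bases and 43.8% of the bases that lay in both lists. Just inside the limit of 20 kb were scaf00608, scaf01410 and scaf01403, with known extents of 18576, 19312 and 19802 bp and 11.2%, 80.7% and 45.4% of the extent in peaks of either list. Just outside it were scaf01266, scaf01382 and scaf00859, with 20503, 20534 and 20579 bp and 34.4%, 60.4% and 2.58% of the extent in peaks. The values on the inner and the outer side of the limit overlap.

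Peaks filled most of the known extent on most of these scaffolds. The median share of the extent in peaks of either list was 72.1% (57.8 to 76.0%, n = 139), and single scaffolds ranged from 2.82% to 99.7%. At least 90% of the extent was in peaks on 30 scaffolds, at least 50% on 94, and at least 25% on 118. Summed over all 139 scaffolds, 698569 bp or 56.2% of the extent were covered. Part of this is set by the choice of members, since each extent ends at a peak by definition. Both antibodies had peaks on 110 of the 139 scaffolds, CENP-A alone on 20 and CREST alone on 9. Over all scaffolds both had peaks on 212 of 346, and on those of 20 kb to under 100 kb on 54 of 80. In the members, the scaffolds with both had a median of 76.6% of the extent in peaks (72.8 to 82.2%). Those with CENP-A alone had 19.2% (13.9 to 32.8%), and those with CREST alone 21.9% (5.04 to 52.7%). The median extents were 9121 bp (7744 to 10835 bp), 10660 bp (5274 to 14071 bp) and 5330 bp (1850 to 12746 bp), with overlapping intervals. The share of 76.6% counts peaks of either list. Counting CENP-A peaks alone, the scaffolds with both antibodies had a median of 73.4% (67.8 to 80.1%). The part of the extent in the difference between these kinds of scaffold was not tested.

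On the scaffolds with both antibodies, CENP-A peaks covered 616631 bp and CREST peaks 542314 bp, and the median covered shares had overlapping intervals. The median share of the extent in CENP-A peaks was 73.4% (67.8 to 80.1%, n = 110) and in CREST peaks 68.6% (60.0 to 74.6%). CENP-A covered more bases than CREST on 96 of the 110 scaffolds (87.3%, Wilson interval 79.8 to 92.3%). The widest margin was on scaf01513, with 15067 bp in CENP-A and 6622 bp in CREST peaks. The bases in both lists were a median of 89.9% (84.3 to 94.3%) of the bases in either. This share was at least 90% on 55 scaffolds, from 50% to under 90% on 38 and under 50% on 17. All 110 scaffolds with both antibodies held at least 1 overlap between the lists.

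**Figure D1:**
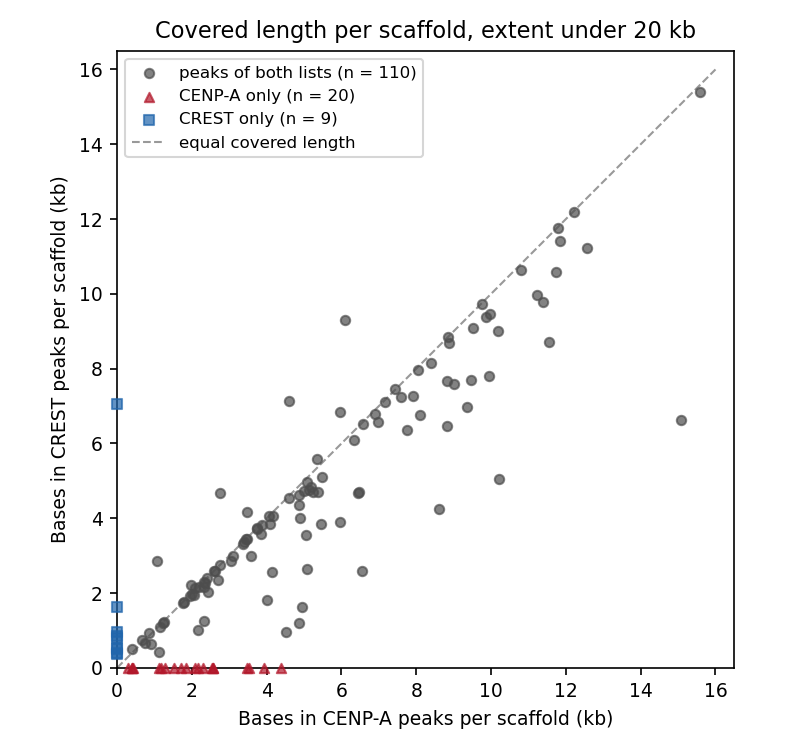
Bases in CENP-A peaks (x axis, kb) against bases in CREST peaks (y axis, kb) on each of the 139 scaffolds with a known extent under 20 kb; the dashed line marks equal lengths, triangles the 20 scaffolds with CENP-A peaks only and squares the 9 with CREST peaks only. On 96 of the 110 scaffolds with both antibodies the point lies below the line, farthest on scaf01513 with 15067 bp in CENP-A and 6622 bp in CREST peaks.

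The number of peaks was equal on most scaffolds with both antibodies, many of which had 1 peak of each list. The lists had the same number of peaks on 81 of the 110 (73.6%, Wilson interval 64.7 to 81.0%), more CENP-A peaks on 19 and more CREST peaks on 10. Of the 81, 45 had 1 peak of each list, which was the commonest pattern, 16 had 2, 14 had 3 and 6 had 4. Peak numbers on longer scaffolds were not compared. The 45 with 1 peak of each list had a median extent of 3383 bp (2607 to 4320 bp). Peaks of either list filled a median of 93.8% (85.9 to 95.7%) of it. No gap within a list was under 1014 bp, so a short extent has less room for a second peak. The part of this limit in the equal numbers was not tested. The other 65 had a median extent of 12096 bp, a median of 58.9% (55.5 to 72.4%) in peaks, and up to 6 CENP-A or 4 CREST peaks each. Bases in both lists made up a median of 98.1% (94.7 to 98.7%) of the covered bases on the scaffolds with 1 peak of each list. On the other 65 this was 78.6% (72.2 to 85.9%).

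The covered share was lower on scaffolds from 5000 bp on than on shorter ones by its medians. The 20 scaffolds under 2500 bp had a median of 81.9% (72.9 to 93.6%) of the extent in peaks, and the 23 from 2500 to under 5000 bp had 85.9% (82.2 to 95.6%). From 5000 to under 10000 bp it was 64.8% (48.6 to 78.2%, n = 32), from 10000 to under 15000 bp 58.9% (47.8 to 72.4%, n = 45), and from 15000 to under 20000 bp 37.7% (14.0 to 74.6%, n = 19). The intervals of neighbouring classes overlap, except between the second and the third. Among scaffolds with both antibodies, bases in both lists made up a median of 97.9% of the covered bases under 2500 bp and 97.4%, 91.8%, 83.0% and 62.9% in the longer classes in order. The interval of the longest class, 38.3 to 94.1%, overlaps those of all the others. The share of CREST bases that also lay in CENP-A peaks stayed between 90.1% and 95.1% in all 5 classes. The share of CENP-A bases that also lay in CREST peaks was 87.4% in the shortest class, then 86.2%, 81.7% and 79.0%, and 67.2% in the longest. A peak can span no more than its scaffold, and the part of this limit in these values was not tested.

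Of the 266 CENP-A peaks, 202 overlapped a CREST peak by at least 1 bp (75.9%, Wilson interval 70.5 to 80.7%), against 22.4% of the CENP-A peaks of all scaffolds. Of the 227 CREST peaks, 212 overlapped a CENP-A peak (93.4%, 89.4 to 96.0%), against 74.8% over all scaffolds. On scaffolds of 20 kb to under 100 kb the shares were 66.2% (60.9 to 71.1%) and 87.0% (82.3 to 90.5%). These intervals overlap those of the members. Scaffolds of 1 Mb or more, which hold 1681 of the 2412 CENP-A peaks, had 3.69% and 34.0%. In the members, peaks cover 56.2% of the extent, and the part of this dense cover in the overlap was not tested. Restricted to the scaffolds with both antibodies, 202 of 225 CENP-A peaks (89.8%, 85.1 to 93.1%) and 212 of 215 CREST peaks (98.6%, 96.0 to 99.5%) overlapped. This restriction raises both shares by its choice, since it drops 41 CENP-A and 12 CREST peaks that had no other list to meet. It was not applied to longer scaffolds, so these shares have no counterpart there.

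In bases, CENP-A peaks covered 656359 bp and CREST peaks 555381 bp, and 513171 bp lay in both. The shared bases were 78.2% of the CENP-A bases, 92.4% of the CREST bases and 73.5% of the bases in either list. CENP-A alone covered 143188 bp, and 85244 bp of these belonged to peaks that met CREST elsewhere along their length. The remaining 57944 bp (40.5%) were in 64 separate CENP-A peaks, 41 of them with 39728 bp on the 20 scaffolds without CREST and 23 with 18216 bp on scaffolds that carried both. CREST alone covered 42210 bp, with 27017 bp in overlapping peaks and 15193 bp (36.0%) in 15 separate peaks. Of those 15, 12 were on the 9 scaffolds without CENP-A. The larger part of the bases seen with 1 antibody only was therefore attached to a peak of both antibodies, in either list.

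Separate peaks on scaffolds with both antibodies were narrow and mostly lay more than 1 kb from the other list. No gap within a list was under 1014 bp, and a narrow peak has fewer chances to overlap. The part of both limits in these values was not tested. The 23 separate CENP-A peaks on scaffolds with both antibodies were 532 bp wide at the median (390 to 879 bp). They lay a median of 1537 bp (1139 to 2533 bp) from the nearest CREST peak, with a range of 598 to 9858 bp, and 2 of the 23 lay within 1 kb. The 3 separate CREST peaks on such scaffolds were on scaf01420 (4026 to 4666), scaf01435 (16824 to 17803) and scaf01562 (10740 to 11244), named after their values were seen, and the gap to the closest CENP-A peak measured 1525 to 4401 bp.

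The 10 scaffolds with the most bases in both lists were picked for their shared bases, so they illustrate matching peaks and do not measure how well the lists match. On scaf01410 there were 3 peaks of each list: the CENP-A peaks lay at 154 to 7942, 10397 to 13408 and 14525 to 19312, and the CREST peaks at 273 to 7923, 10394 to 13373 and 14552 to 19309. Each peak and each gap recurs in both lists, and 15386 bp or 98.7% of the covered bases were shared. On scaf01582 the lists had 2 peaks each, with CENP-A at 40 to 2613 and 3735 to 13366 and CREST at 49 to 2591 and 3745 to 13387, and shared 12165 bp. Scaf01611 carried 1 peak of each list, 317 to 12100 for CENP-A and 335 to 12089 for CREST, so that the whole CREST peak lay inside the CENP-A peak. The same held on scaf01633, with 393 to 11203 for CENP-A and 536 to 11182 for CREST. On scaf01674 the peaks were shifted against each other, from 144 to 9901 for CENP-A and from 314 to 10054 for CREST.

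Others of the 10 differed in how the enrichment was divided. On scaf01642 a single CENP-A peak from 164 to 11398 lay over 2 CREST peaks, at 362 to 4236 and 5281 to 11380. On scaf01503 a CENP-A peak from 261 to 10555 lay over CREST peaks at 265 to 7899 and 9211 to 10522, while the pair near 11700 had nearly the same limits, 11704 to 12791 for CENP-A and 11700 to 12827 for CREST. On scaf01529 the first 3 of 4 peaks began within 43 bp of each other in the lists, and the last began at 10403 for CENP-A and 11502 for CREST, with ends at 15192 and 15193. Scaf01565 and scaf01605 had 2 peaks of each list, with the last CENP-A peak ending at 14212 and 12109 and the last CREST peak at 13853 and 11856.

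**Figure D2:**
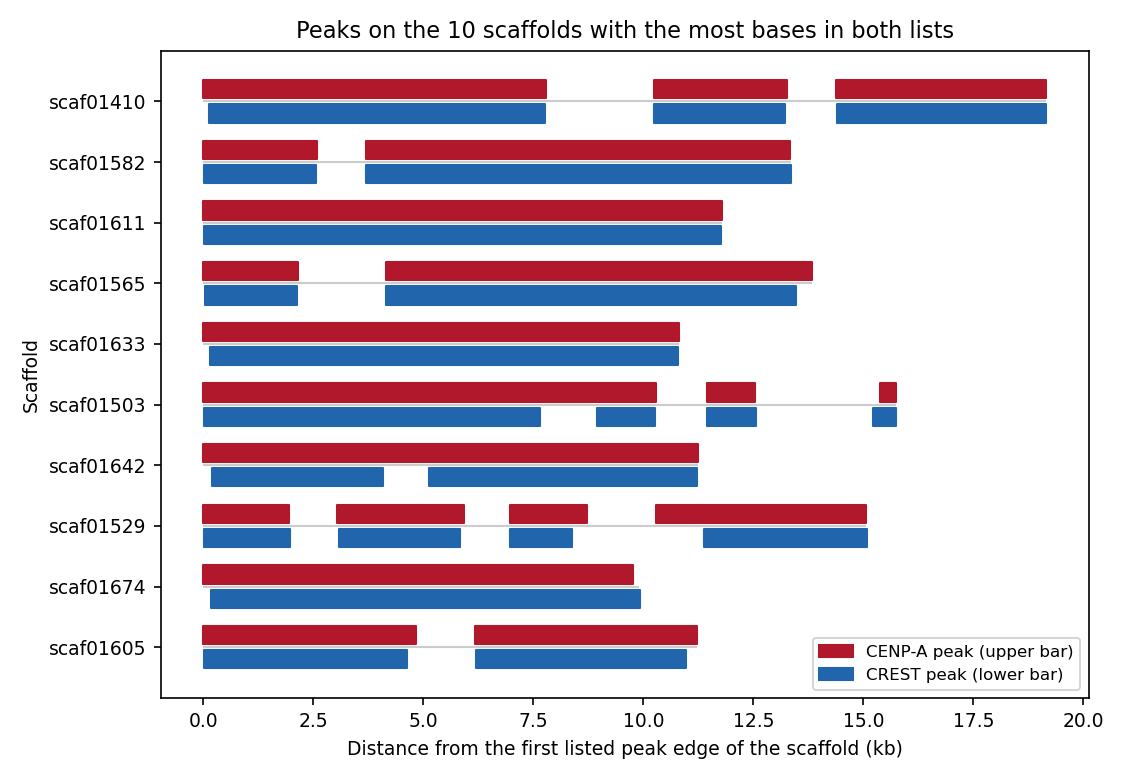
Position of every peak on the 10 scaffolds with the most bases in both lists, as the distance in kb from the first listed peak edge of the scaffold (x axis), with CENP-A peaks as the upper and CREST peaks as the lower bar of each scaffold. On scaf01410 all 3 peaks have a counterpart with nearly the same limits, and on scaf01642 1 CENP-A peak spans 2 CREST peaks.

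The lists formed 218 overlapping pairs, and in 177 of them 1 peak of each list overlapped no other. In these 177 pairs the median distance was 27 bp (22 to 33 bp) between starts and 40 bp (27 to 67 bp) between ends. Both edges lay within 200 bp in 115 pairs (65.0%, Wilson interval 57.7 to 71.6%), within 50 bp in 67 (37.9%) and within 10 bp in 13 (7.34%). Over the 477 such pairs of all scaffolds, both edges lay within 200 bp in 63.9% (59.5 to 68.1%), so the share in the members was near that of the whole lists. No pair had identical limits, and 2 starts and 1 end were equal. The widths of the pairs ran together (Spearman's rho 0.87 across the 177 pairs, which share their scaffolds and their libraries). The scaffold limits both widths of a pair, and the part of this limit in the correlation was not tested.

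Edges were compared separately where the scaffold itself could limit a peak. In 79 pairs a peak began within 1 kb of the scaffold start, and there the median distance between starts was 23 bp (17 to 29 bp), with 73 of 79 (92.4%, 84.4 to 96.5%) within 200 bp. In the other 98 pairs it was 37.5 bp (23 to 115 bp; 70 bp, 28 to 129 bp, over all 123 overlapping pairs of that kind), with 70 of 98 (71.4%, 61.8 to 79.4%) within 200 bp. The medians have overlapping intervals, while the shares within 200 bp do not overlap, so the difference lay in the large distances: the upper quartile was 47 bp at the scaffold start and 257.5 bp farther in. Within 10 bp of each other were 30 of 98 starts farther in (30.6%, 22.4 to 40.3%) and 20 of 79 at the scaffold start (25.3%, 17.0 to 35.9%), whose intervals overlap. Ends followed by a further peak differed by a median of 56.5 bp (35 to 95 bp, n = 86) and ends of the last peaks of a scaffold by 31 bp (22 to 56 bp, n = 91). Within 200 bp were 61 of 86 (70.9%, 60.6 to 79.5%) and 76 of 91 (83.5%, 74.6 to 89.7%), which overlap in their intervals. Whether a last peak stops at the end of its scaffold was not tested.

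**Figure D3:**
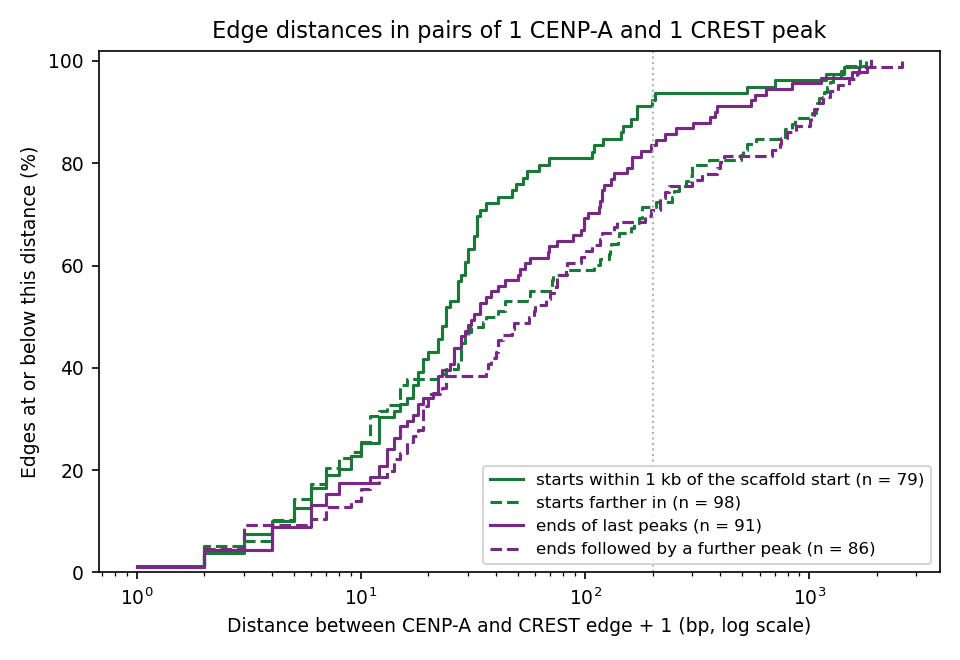
Share of edges (y axis, %) at or below a given distance between the CENP-A and the CREST edge (x axis, bp plus 1, log scale) in the 177 pairs, for starts within 1 kb of the scaffold start, starts farther in, ends of last peaks and ends followed by a further peak; the dotted line marks 200 bp. At 200 bp the curves stand at 92.4%, 71.4%, 83.5% and 70.9% in that order.

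For 50 pairs both edges lay inside the scaffold, with a start beyond 1 kb and a further peak after the end. Both edges lay within 200 bp in 26 of them (52%, 38.5 to 65.2%), against 37 of 43 (86.0%, 72.7 to 93.4%) in the pairs that began within 1 kb of the start and were the last of their scaffold. These groups also differed in width, with CREST medians of 1200 bp (890 to 1868 bp) and 2595 bp (2169 to 3444 bp). By the narrower peak of a pair, the share was 46.4% (29.5 to 64.2%, n = 28) under 500 bp. At 5000 bp or more it was 86.7% (62.1 to 96.3%, n = 15). The part of width in the difference was not tested. The 5 closest of the 50 were on scaf01530 (10109 to 10413 for CENP-A, 10112 to 10407 for CREST), scaf01421 (3774 to 4598 and 3778 to 4604), scaf01773 (2424 to 2715 and 2434 to 2714), scaf01649 (2524 to 4478 and 2520 to 4467) and scaf01638 (2888 to 3383 and 2889 to 3368). Their summed edge differences were 9 to 16 bp, in peaks of 281 to 1955 bp. The 5 farthest were on scaf01587, scaf01570, scaf01420, scaf01435 and scaf01403. On scaf01587 a CENP-A peak from 5599 to 8862 held a CREST peak of 437 bp (5846 to 6282), and on scaf01570 a CENP-A peak of 2757 bp held a CREST peak of 303 bp. On scaf01420 the peaks met only at their tips, with CREST at 13560 to 14808 and CENP-A at 14635 to 16045.

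Where edges differed, the CENP-A edge was usually the outer one. CENP-A began before CREST in 123 of 177 pairs (69.5%, 62.4 to 75.8%) and ended after it in 139 (78.5%, 71.9 to 83.9%). The median shift was 15 bp outward at the start and 22 bp outward at the end. In 99 pairs (55.9%) the whole CREST peak lay inside the CENP-A peak, in 11 (6.21%) the reverse, and in 67 the peaks were staggered. CENP-A was the wider peak in 139 pairs, with a median width ratio of 1.02 (1.02 to 1.04). Away from the scaffold start it still began first in 65 of 98 pairs (66.3%, 56.5 to 74.9%), and before a further peak it ended last in 65 of 86 (75.6%, 65.5 to 83.4%). The same edges on scaffolds of 20 kb or more gave 189 of 283 starts (66.8%, 61.1 to 72.0%) and 168 of 244 ends (68.9%, 62.8 to 74.3%), with intervals that overlap those of the members. Nested pairs and width ratios were not counted on those longer scaffolds.

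The remaining 41 pairs joined several peaks of 1 list to a single peak of the other. In 14 cases a CENP-A peak lay over 2 or more CREST peaks, and in 5 cases a CREST peak lay over 2 or more CENP-A peaks. Such cases were not counted on longer scaffolds. The widest peak of the members, CENP-A on scaf01513 from 219 to 15285 (15067 bp), held 4 CREST peaks, at 313 to 3720, 5134 to 6490, 9007 to 9557 and 10600 to 11905, which left 8445 bp in CENP-A alone. In the other direction, a CREST peak on scaf01568 from 9275 to 13261 held 3 CENP-A peaks of 282, 826 and 281 bp. On scaf00654, named after its values were seen, a CREST peak from 11551 to 18528 joined CENP-A peaks that ended at 15305 and began at 17070.

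Gaps between neighbouring CENP-A peaks were free of the other list more often than CREST gaps. Of 115 CENP-A gaps on scaffolds with both antibodies, 63 were free (54.8%, 45.7 to 63.6%) and 46 partly covered (40%). Of 105 CREST gaps, 10 were free (9.52%, 5.26 to 16.6%) and 79 partly covered (75.2%). A gap counts as partly covered from 1 bp on, and CENP-A edges were usually the outer ones. The median cover was 0% of a CENP-A gap and 8.87% (4.18 to 19.0%) of a CREST gap. Gaps on longer scaffolds were not counted. The median gap was 1797.5 bp (1611 to 2037 bp, n = 136) in the CENP-A list and 2054 bp (1563 to 2346 bp, n = 108) in the CREST list, and none was under 1014 bp. On scaffolds with both antibodies CREST peaks covered 9.06% of the bases of CENP-A gaps, and 91 of 115 such gaps (79.1%, 70.8 to 85.6%) were covered by less than 10%. CENP-A peaks covered 22.2% of the bases of CREST gaps, and 54 of 105 (51.4%, 42.0 to 60.8%) were covered by less than 10%. A single CENP-A peak crossed 16 of the 105 CREST gaps from side to side (15.2%, 9.60 to 23.3%), and a single CREST peak crossed 6 of the 115 CENP-A gaps (5.22%, 2.41 to 10.9%). The crossed CREST gaps were short, with a median of 1216.5 bp (1050 to 1373 bp), against 2171 bp (1863 to 2992 bp) for those not crossed. They thus lay near the shortest gap that either list holds.

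In width, CENP-A and CREST peaks had medians with overlapping intervals. The median was 1754.5 bp (1317 to 1967 bp) for CENP-A and 1851 bp (1639 to 2120 bp) for CREST. Under 500 bp were 47 CENP-A peaks (17.7%, 13.6 to 22.7%) and 24 CREST peaks (10.6%, 7.21 to 15.2%). From 500 to under 1000 bp there were 43 in each list, from 1000 to under 2000 bp 63 CENP-A and 56 CREST, and from 2000 to under 5000 bp 81 and 84. At 5000 bp or more there were 32 CENP-A and 20 CREST peaks, which held 38.9% of the CENP-A and 28.3% of the CREST bases. The narrow peaks of the lists differed in how often they overlapped. Of the CENP-A peaks under 500 bp, 21 of 47 overlapped a CREST peak (44.7%, 31.4 to 58.8%), while 21 of 24 CREST peaks of that width overlapped a CENP-A peak (87.5%, 69.0 to 95.7%). On scaffolds of 20 kb to under 100 kb these were 25 of 57 (43.9%, 31.8 to 56.7%) and 34 of 47 (72.3%, 58.2 to 83.1%), with overlapping intervals in each list. On scaffolds of 1 Mb or more they were 1.75% and 22.3%. In the members, from 500 to under 1000 bp the shares were 53.5% (38.9 to 67.5%) and 81.4% (67.4 to 90.3%). On scaffolds of 20 kb to under 100 kb they were 51.4% (40.2 to 62.4%) and 78.8% (66.0 to 87.8%), with overlapping intervals in each list. All 32 CENP-A and all 20 CREST peaks of 5000 bp or more in the members overlapped. So did 75 of 81 and 82 of 84 from 2000 to under 5000 bp. On scaffolds of 20 kb to under 100 kb these were all 27 and all 28, and 75 of 82 and 73 of 75. From 1000 to under 2000 bp, 51 of 63 CENP-A peaks (81.0%, 69.6 to 88.8%) and 54 of 56 CREST peaks (96.4%, 87.9 to 99.0%) overlapped in the members. On the scaffolds of 20 kb to under 100 kb these were 59.1% (48.6 to 68.8%) and 86.4% (75.5 to 93.0%). Only the CREST intervals of that class overlap. A wide peak has more chances to meet another, so the increase with width is partly built in.

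**Figure D4:**
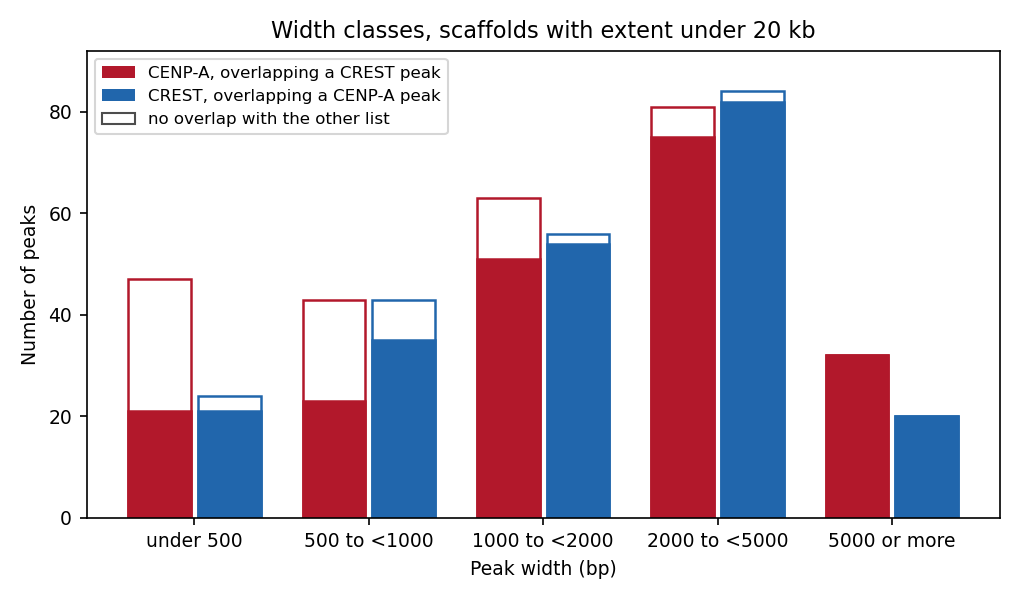
Number of peaks (y axis) in each class of width (x axis, bp) for CENP-A (left bar) and CREST (right bar) on scaffolds with a known extent under 20 kb; the filled part of a bar counts the peaks that overlap the other list and the open part those that do not. The open part is largest for CENP-A peaks under 1000 bp, and no peak of 5000 bp or more lacks an overlap.

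Median widths were lower when only interior peaks were counted. These have a start beyond 1 kb of the scaffold start and a further peak after them. Their median width was 1088 bp (825 to 1593 bp, n = 85) for CENP-A and 1334.5 bp (995 to 1839 bp, n = 70) for CREST. Both intervals overlap those of all members. The choice also leaves out all 45 scaffolds with 1 peak of each list, and true scaffold ends were not used here. Of these interior peaks, 65.9% of CENP-A (55.3 to 75.1%) and 95.7% of CREST (88.1 to 98.5%) overlapped. A width of 8000 bp or more was reached by 14 CENP-A and 6 CREST peaks, on 14 scaffolds. Of the 14 from CENP-A, 9 had their start in the first 1 kb of the scaffold. For 7 of them, on scaf01611, scaf01633, scaf01674, scaf01565, scaf01582, scaf01701 and scaf01722, a single CREST peak was the counterpart. For the other 7, on scaf01513, scaf01642, scaf01503, scaf01615, scaf01580, scaf01669 and scaf01551, at least 2 CREST peaks lay below. On scaf01701 the limits were 95 to 8940 for CENP-A and 84 to 8926 for CREST, and on scaf01722 34 to 8088 and 29 to 7990. Scaf01722 had 99.7% of its extent in peaks, the highest share among the 139.

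Of the 5 scaffolds with the most peaks, 3 were picked among 7 with 8 peaks of both lists together by their shared bases, which favours matching lists. On scaf01421 each list had 4 peaks, and those at 6024 to 10444 (CENP-A) and 6034 to 10429 (CREST) differed by no more than 15 bp at either edge. On scaf01530 each list also had 4, with CENP-A at 5449 to 8850 and CREST at 5454 to 8804. By contrast, on scaf01446, with 6 CENP-A and 4 CREST peaks, the CREST peak at 1495 to 2034 overlapped only the end of the CENP-A peak at 64 to 1819, and CENP-A peaks at 8081 to 8470 and 17762 to 18066 had no counterpart. On scaf01403, with 5 and 4 peaks, CENP-A covered 8611 bp and CREST 4242 bp, of which 3856 bp were shared. Chosen after the values were seen, scaf00904 was the scaffold with both antibodies that had the smallest shared part, 6.36% of its covered bases: CENP-A lay at 1627 to 3611 and 6198 to 6544, and CREST at 5166 to 6411. Scaf01568 was, likewise chosen, the scaffold where CREST exceeded CENP-A by the most bases, with 9293 bp against 6085 bp.

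Scaffolds with peaks of 1 antibody only carried peaks with median widths under 1000 bp. The 20 with CENP-A alone held 41 peaks with a median width of 667 bp (443 to 974 bp), and 7 of the 20 held 1 peak. That is a mean of 2.05 CENP-A peaks per scaffold, as on the scaffolds with both antibodies (225 on 110). The 5 with the most bases were scaf01579, scaf01792, scaf01535, scaf01502 and scaf00713. Scaf01792 held 1 peak, from 653 to 4591, and scaf00713 also 1, from 10203 to 12779. On scaf01502 the peaks lay at 4817 to 7120 and 9365 to 10528, and on scaf01535 at 3634 to 5663, 7635 to 8754 and 12973 to 13343. The 9 scaffolds with CREST alone held 12 peaks with a median width of 819 bp (498 to 1614 bp), and 8 of the 9 held 1 peak. The exception, scaf00822, had 4, at 594 to 3706, 4744 to 6914, 9942 to 10567 and 11588 to 12729. The next by bases were scaf01785 (3717 to 5330), scaf01877 (870 to 1836), scaf01196 (11425 to 12273) and scaf00750 (14880 to 15668). The lists hold no peak height, so a region just below the threshold of a peak call cannot be told apart from one without enrichment.

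Most of these scaffolds were covered close to their start, yet almost never at the first bases. The first listed base lay within 1 kb of the start on 103 of 139 scaffolds (74.1%, Wilson interval 66.2 to 80.7%) and within 100 bp on 19 (13.7%, 8.93 to 20.4%). Its median was position 359 (248 to 484) and its lowest value position 19. On the 96 scaffolds with a known extent of 5 kb to under 20 kb, position 100 lay in a CENP-A peak on 11.5% (6.52 to 19.4%) and in a CREST peak on 7.29% (3.58 to 14.3%), and position 25 in a peak of each list on 1 of the 96. At position 250 this was 37.5% and 20.8%, and at position 500 it was 54.2% (44.2 to 63.8%) and 41.7% (32.3 to 51.7%). From there to position 5000 the shares stayed between 46.9% and 58.3% for CENP-A and between 39.6% and 46.9% for CREST. The 80 scaffolds of 20 kb to under 100 kb also had their lowest shares at the start, and reached 21.2% for CENP-A and 20% for CREST at position 500. Lower cover of the first bases than of position 500 was thus found in both lists and in both classes of scaffold.

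**Figure D5:**
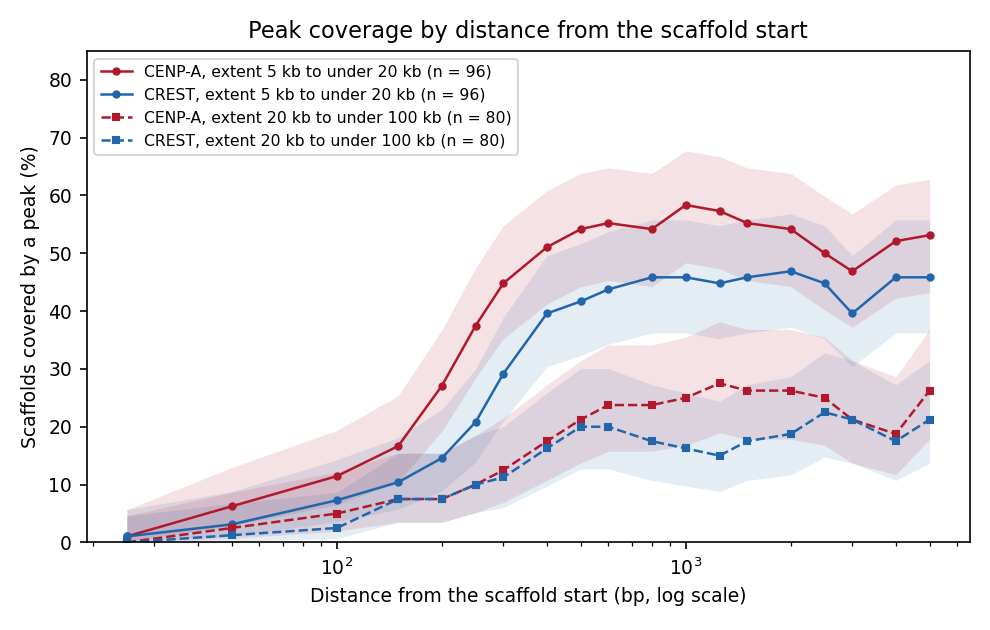
Share of scaffolds (y axis, %) on which a given distance from the scaffold start (x axis, bp, log scale) lies in a CENP-A or a CREST peak, for 96 scaffolds with a known extent of 5 kb to under 20 kb (solid) and 80 of 20 kb to under 100 kb (dashed); bands are 95% Wilson intervals. In the shorter class CENP-A goes from 11.5% at 100 bp to 54.2% at 500 bp and then stays near that level.

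Beside the 589 peaks on the 80 scaffolds of 20 kb to under 100 kb, the members had higher median widths and a larger covered share. Median widths on those longer scaffolds were 1269.5 bp (1139 to 1439 bp) for CENP-A and 1396 bp (1206 to 1761 bp) for CREST, whose intervals overlap those of the members. Peaks of either list covered a median of 19.8% (13.2 to 29.2%) of the extent there, a difference that the limit on the extent partly builds in. Shared bases were 74.0% of CENP-A and 88.8% of CREST bases, against 78.2% and 92.4% in the members. Over all scaffolds of 20 kb or more, starts away from the scaffold start differed by a median of 46 bp (35 to 54 bp, n = 283), and 78.8% (73.7 to 83.2%) lay within 200 bp. These intervals overlap those of the 98 starts of the members. No test of these differences was made, since each list comes from 1 library.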

How the data were processed

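Peak lists of 2 of the 3 libraries were analysed, and the input library is not analysed here. The authors' deposited lists give scaffold, start and end in bp, 1 list per library, with no height, score or depth. Tools listed in the submitters' processing notes are MACS2 2.0.10.20131216, Bowtie2 and Trimmomatic 0.36. The sources used here state neither the parameters and threshold nor the placing of reads that match several repeat copies, which can change the number and width of peaks in repeats. Starts were read as counting from 0 and are printed counting from 1. Peaks were taken as overlapping from 1 bp on. Shares carry Wilson intervals and medians carry binomial rank intervals, which treat peaks as independent. Python 3.11.15 with numpy 2.4.6, pandas 2.3.3, scipy 1.17.1 and matplotlib 3.10.9 was used, and the interval code was tested on simulated data. The regions named are the 10 scaffolds with the most shared bases, the 5 with the most peaks (ties broken by shared bases), the 5 with the most bases of each antibody alone, the 5 closest and the 5 farthest interior pairs, the 3 scaffolds on each side of the limit, and peaks of at least 8000 bp; other regions were named after their values were seen. Members, rules and classes were chosen with earlier results of these data known. Alternatives changed the overlap, width, extent, start zone and tolerance. No sequence or gene annotation of this assembly was used here.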

Additional observations from a re-analysis of the deposited data

How the results depend on the processing

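No paired analysis was possible because each antibody has 1 library, and for the same reason no replicate could be left out. Of 66 recomputed values, 48 stayed inside the interval, or within 1.5 times the count, of the reported value and 18 did not. Intervals over bases are narrow by construction. Some of the 48 were fixed in advance and are no sign of stability. The start zone does not enter the end differences, and limiting to scaffolds with both antibodies keeps all 110 of them. Limited to scaffolds with both antibodies, the overlap was 89.8% for CENP-A and 98.6% for CREST, shared bases were 83.2% and 94.6%, and a median of 76.6% of the extent was in peaks. With peaks of at least 500 bp only, shared bases were 78.6% of CENP-A and 91.9% of CREST bases, and the median CENP-A width was 2022 bp. An extent limit of 15000 bp gave shared bases of 81.0% and 92.9%, and a limit of 25000 bp 77.5% and 92.2%. Both edges lay within 100 bp in 49.2% of pairs, within 50 bp in 37.9%, and within 200 bp in 52.8% of all overlapping pairs. Interior peaks, a setting chosen after seeing the data, gave 65.9% for CENP-A overlap and median widths of 1088 bp and 1334.5 bp. With all overlapping pairs the median start difference away from the scaffold start was 70 bp against 37.5 bp, inside the interval of 23 to 115 bp. Without the read depth, a missing peak cannot be told apart from a region sequenced too little.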
